A study of Mus musculus with 3 samples.

Results

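Cytosolic ribosomal protein genes encode the proteins of the large (Rpl and Rplp names) and small (Rps names) subunits of the ribosome outside mitochondria. They were taken by name: 80 gene symbols fitted the Rpl, Rps and Rplp pattern, and 78 of them, 48 of the large and 30 of the small subunit, reached 30 unique molecular identifiers (UMIs, each marking 1 captured RNA molecule) summed over the data. The data set holds 32285 genes, of which 20916 reached the same minimum. Just inside it lay Rpl3l with 117 UMIs, Rps27l with 953 and Rpl36a with 2755, and outside it lay Rpl39l with 10 and Rpl10l with 1. The pattern leaves out some genes that also belong to the ribosome, among them Rpsa, Fau, Rack1 and Rps3a1.

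The libraries were made from sorted nuclei of the hippocampus of 3 adult female mice, all of genotype Scn8aD/+ (heterozygous for the D allele of a sodium channel gene mutated in epileptic encephalopathy) and all taken after seizure onset. The labels put each mouse in a separate batch (1, 2 and 3), and the effect of a batch and of an animal cannot be told apart. Animals before onset and controls are not analysed here, so nothing below compares genotypes or disease stages. Comparisons are between classes of nuclei of the same mice.

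Ribosomal proteins are made in the cytoplasm from short, spliced and very abundant messenger RNAs, and are imported into the nucleolus, where subunits are assembled on ribosomal RNA. Many of these messengers begin with a C followed by a run of pyrimidines, the TOP sequence, through which growth signals set their translation. A nucleus holds only transcripts that have not been exported, together with any cytoplasmic RNA that stays attached or is free in the suspension, and the counts do not separate these sources.

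RefSeq promoters (GRCm38.p6) of 300 bases, 250 before to 50 after a listed start, were found for 58 of the 78 members. A C followed by 4 bases that are each C or T, on the strand of the gene and beginning within 3 bases of a start, was present in 24 of the 58 (41.4%), against 13.5% of 27025 genes. Beginning at the listed start itself, it was present in 13 members (22.4%) and 3.01% of genes. The letters CCGGAAG, on either strand anywhere in the 300 bases, occurred in 23 members (39.7%) and 9.93% of genes, and AANATGGCG in 5 members (8.62%) and 2.76%. Windows of 30 bases, with 15 before the listed start, are shown for 8 members described in the comparisons below, chosen after their values were seen. Of these, 2 hold a C followed by 4 bases of C or T that begins within 3 bases of the start. Capitals mark the run of C and T that starts with the matched C. The windows without capitals hold no match at that place. Such runs can lie elsewhere in them, as in Rpl10a and Rpl13, and the window of Rpl11 holds CCGGAAG. They lie on the plus strand at chr7:3704026-3704055 (Rps9), chr17:28328456-28328485 (Rpl10a) and chr8:123102335-123102364 (Rpl13), and on the minus strand at chr14:18270972-18271001 (Rpl15), chrX:102189377-102189406 (Rps4x), chrX:37085208-37085237 (Rpl39), chr4:136053379-136053408 (Rpl11) and chr10:128549154-128549183 (Rpl41).
Rps9: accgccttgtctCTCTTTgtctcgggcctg
Rpl15: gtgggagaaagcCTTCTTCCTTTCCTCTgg
Rps4x: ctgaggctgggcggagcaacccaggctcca
Rpl39: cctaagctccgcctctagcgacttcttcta
Rpl11: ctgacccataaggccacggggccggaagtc
Rpl41: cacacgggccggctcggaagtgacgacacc
Rpl10a: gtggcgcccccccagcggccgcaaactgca
Rpl13: ttccctttcgcctgattttgattggcgttt

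The libraries differed widely in depth. After filtering, mice 1, 2 and 3 kept 7866, 11758 and 4384 nuclei with medians of 8408.5, 1796 and 24848 UMIs. UMIs of the mitochondrial genome made up 0.00962% to 0.0111% of each library. No marker-defined class was given to 8.01%, 40.8% and 14.3% of the kept nuclei, and in 21 of the 37 clusters 1 mouse supplied 80% or more of the nuclei. Libraries shared 13 to 36 cell barcodes per pair, at most 0.537% of the smaller library.

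Ribosomal protein genes took a small part of the nuclear RNA. They held 0.230% of the UMIs of mouse 1 (95% Wilson interval 0.229% to 0.231%), 0.257% of mouse 2 (0.255% to 0.258%) and 0.146% of mouse 3 (0.145% to 0.147%). These intervals cover counting error only. The median nucleus carried 22, 8 and 39 member UMIs, and the share of nuclei with none was 0.0127%, 0.442% and 0%. The deepest library thus had the lowest share and the most member UMIs per nucleus, and the shallowest library the reverse.

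The 78 genes moved between mice almost as a block. In CPM (UMIs of a gene scaled by the library's total), the median member stood at 28.1, 32.7 and 18.2 in mice 1, 2 and 3. All 78 members were lowest in mouse 3, 68 were highest in mouse 2 and 10 in mouse 1. This order of mice was not particular to the members. Nuclear respiratory chain genes held 0.233%, 0.254% and 0.148% of UMIs, and mitochondrial ribosomal protein genes 0.133%, 0.139% and 0.0910%. Some other lists had another order, such as the stress and RNA quality genes at 0.0338%, 0.0218% and 0.0242%. The order of the members was alike, with a Spearman rho across genes of 0.963 between mice 1 and 2, 0.933 between 1 and 3 and 0.923 between 2 and 3. Large-subunit genes held 62.7%, 61.4% and 62.9% of the member UMIs.

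**Figure D1:**
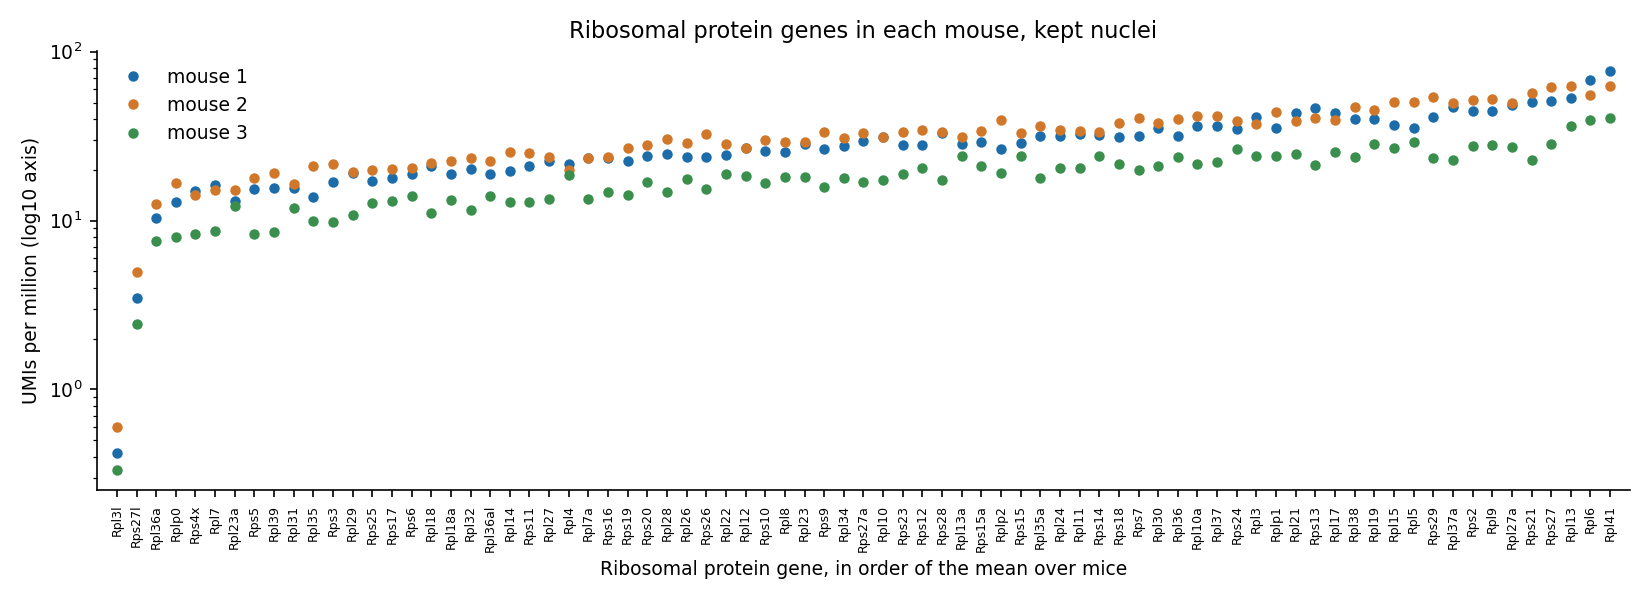
CPM (log10 axis) of 77 ribosomal protein genes in the kept nuclei, 1 point per mouse, ordered by the mean over mice. Mouse 3 is lowest for each gene shown, and Rpl3l and Rps27l lie apart at the low end.

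UMIs were spread over many members rather than a few. The 10 with the most UMIs held 21.9% ± 1.14 (SD, n = 3) of the total. Gene totals are not corrected for length or for the site of priming, so they say how the UMIs divide and not which protein is made most. Rpl41, which encodes a very small basic protein of the large subunit, led with 77.2, 62.5 and 40.8 CPM in mice 1, 2 and 3. Rpl6 followed with 68.3, 55.8 and 39.3 CPM, and Rpl13 with 53.4, 62.8 and 36.1 CPM, so that Rpl13 and not Rpl41 was first in mouse 2. Rps27, Rpl27a, Rps21, Rpl9, Rps2 and Rpl37a were also among the 10, with means of 39.8 to 47.2 CPM.

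Of the members taken as paralogs by name, Rpl3l and Rps27l were rare, while Rpl36al and Rps27a were not. Rpl3l, the muscle form of Rpl3, was at 0.418, 0.597 and 0.333 CPM, and Rps27l, a p53-responsive relative of Rps27, at 3.50, 4.99 and 2.44 CPM. Rpl36al, an intronless relative of Rpl36a, was at 18.8, 22.6 and 14.1 CPM. Rps27a, which encodes a fusion of ubiquitin with a small-subunit protein, was at 29.7, 33.0 and 16.9 CPM. Near-identical processed pseudogenes are numerous for this family, and reads shared with them may be lost or misplaced. The symbols named as pseudogenes held 555 UMIs, 0.0976% of the members' total.

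The 4 glia-like classes had higher mean shares of ribosomal protein UMIs than the granule-, CA-, inhibitory- and other glutamatergic-like classes, while Cajal-Retzius-like nuclei lay among the glia-like ones. Astrocyte-like nuclei had shares of 0.526%, 0.432% and 0.391% in mice 1, 2 and 3 (0.450% ± 0.0693, SD, n = 3), from 44, 68 and 124 nuclei. Microglia-like nuclei had 0.476%, 0.308% and 0.378% (0.387% ± 0.0843). Oligodendrocyte-like nuclei had 0.318%, 0.326% and 0.225% (0.290% ± 0.0561), and oligodendrocyte precursor (OPC)-like nuclei 0.307%, 0.317% and 0.224% (0.283% ± 0.0508). Oligodendrocyte-like nuclei lay slightly above OPC-like nuclei in 3 of 3 mice, with Wilson intervals that overlapped in each. With nuclei matched on depth in the narrow bins described below, OPC-like nuclei were the higher in 3 of 3 mice. The log2 ratios of OPC-like over oligodendrocyte-like shares were then 0.40, 0.033 and 0.46.

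Mitochondrial and stress transcripts were also high in astrocyte-like nuclei. UMIs of the mitochondrial genome made up 0.0595%, 0.0397% and 0.0638% of their total in mice 1, 2 and 3, against class means of 0.0147% to 0.0182% in the other glia-like classes and 0.00760% to 0.00889% in the granule-, CA-, inhibitory- and other glutamatergic-like classes. The mitochondrial share of Cajal-Retzius-like nuclei was 0.00660%, 0.0622% and 0.0189%, above that of astrocyte-like nuclei in mouse 2. In astrocyte-like nuclei the list of stress and RNA quality genes held 0.0659% ± 0.0382 (SD, n = 3), the highest mean of the named classes. Their part in the ribosomal protein share was not tested.

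The neuron-like classes other than Cajal-Retzius-like lay close together at the low end. Granule-like nuclei had 0.256%, 0.175% and 0.155% (0.195% ± 0.0533), inhibitory-like nuclei 0.216%, 0.230% and 0.128% (0.191% ± 0.0551), CA3-like nuclei 0.195%, 0.201% and 0.116% (0.171% ± 0.0472) and CA1-like nuclei 0.188%, 0.149% and 0.132% (0.156% ± 0.0283). In mouse 2 the 244 granule-like and 216 CA1-like nuclei were deep, with medians of 13143 and 18181 UMIs against 1796 for the library. With each library clustered alone, mouse 2 had 956 CA1-like nuclei with a median of 2413 UMIs and a share of 0.253%. Neighbours in this order did not differ beyond their spread. Cajal-Retzius-like nuclei, at 0.312%, 0.446% and 0.185% (0.314% ± 0.131), varied most over mice, had the highest share of all named classes in mouse 2, and rest on 45, 45 and 24 nuclei. With 3 mice, an exact paired permutation test of 2 classes cannot give a two-sided p below 0.25, so no p is given for these shares. By mean CPM over mice, 54 members were highest in astrocyte-like, 15 in microglia-like, 8 in Cajal-Retzius-like and 1 in OPC-like nuclei.

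**Figure D2:**
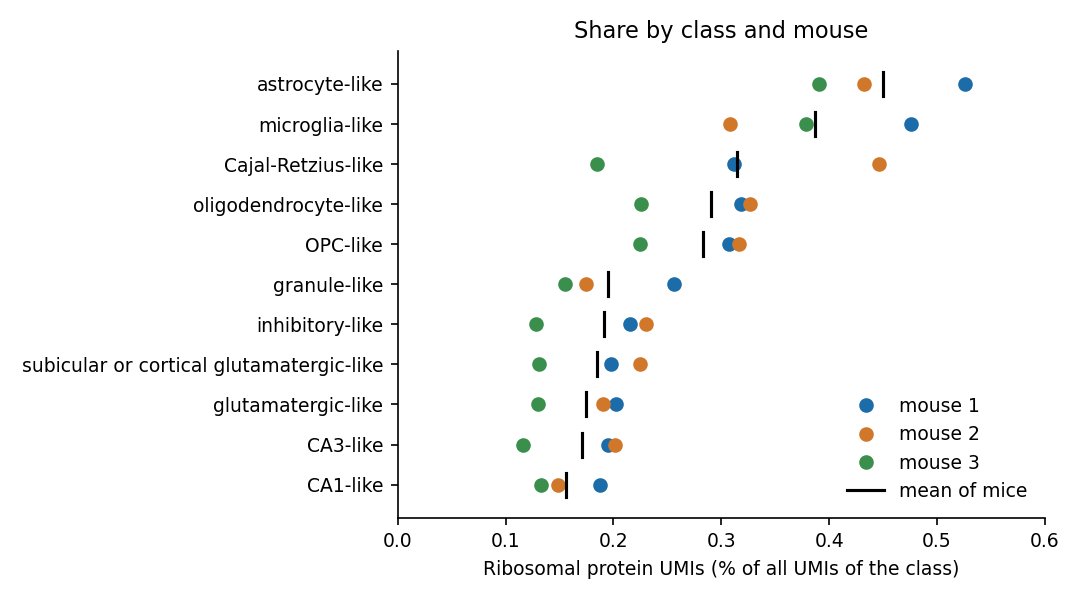
Share of ribosomal protein UMIs (% of all UMIs of the class) for 11 marker-defined classes, 1 point per mouse, with the mean of the mice as a bar. Astrocyte-like nuclei have the highest mean (0.450%) and CA1-like nuclei the lowest (0.156%). The place of CA1-like nuclei depends on the clustering: with each library clustered alone they were at 0.193%, above CA3-like nuclei at 0.177%.

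Classes also differed in depth, and depth moved with the share. In every mouse the share fell as the UMIs of a nucleus rose: Spearman's rho was -0.703, -0.617 and -0.706, and Pearson's r -0.495, -0.557 and -0.434, over 7866, 11758 and 4384 nuclei. These describe nuclei of 1 library each, and the share has depth as its denominator. Within single classes rho was negative in 10 of 10, 11 of 11 and 11 of 11 sets of nuclei (unnamed nuclei included), with medians of -0.612, -0.582 and -0.569.

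Binned by doublings of depth, the share of mouse 1 went from 0.923% at 500 to 1000 UMIs to 0.135% at 32000 to 64000, and that of mouse 2 from 0.625% to 0.121%. Mouse 3 went from 0.544% at 2000 to 4000 UMIs to 0.102% above 64000. Member UMIs per nucleus still rose, from 7.40 to 55.3 in mouse 1, 4.97 to 51.5 in mouse 2 and 17.0 to 86.5 in mouse 3. In mouse 1 this was a 7.47-fold rise over a 64-fold range of depth. Granule-like nuclei of mouse 1 had shares of 0.361%, 0.255% and 0.188% in successive bins from 4000 UMIs, and oligodendrocyte-like nuclei 0.502%, 0.336% and 0.239% from 1000 UMIs.

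At equal depth the order of the mice changed. Mouse 2, highest over whole libraries, was lowest in each of the 5 depth bins that all mice filled. At 4000 to 8000 UMIs the shares were 0.327%, 0.219% and 0.302%, and at 16000 to 32000 UMIs they were 0.180%, 0.148% and 0.165%. The mitochondrial share also fell with depth, from 0.0758% to 0.00637% across the bins of mouse 1. Its part in the relation was not tested.

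**Figure D3:**
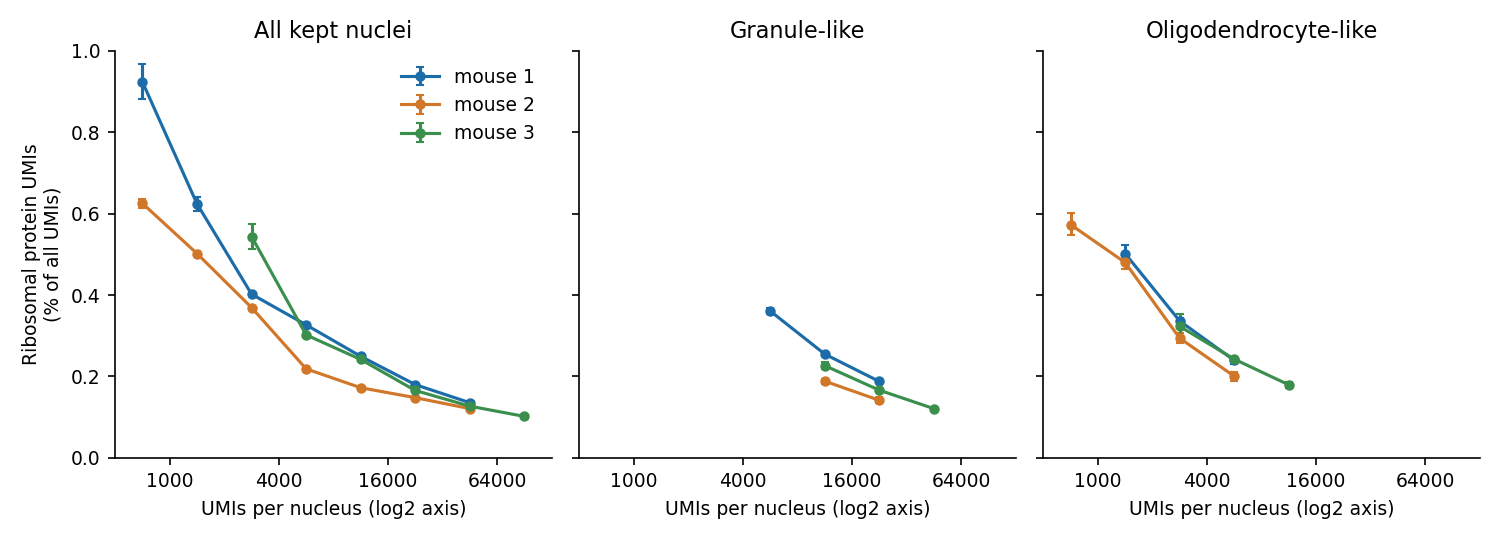
Share of ribosomal protein UMIs (% of all UMIs) against UMIs per nucleus (log2 axis, bins of 1 doubling, drawn at the bin centre and for the open top bin at the same offset), with 95% Wilson intervals. Panels show all kept nuclei, granule-like and oligodendrocyte-like nuclei of each mouse, and each line falls from left to right.

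The fall was shared by other short genes. In 6 classes of each mouse, nuclei were ranked by depth and cut into 3 equal parts, and the shallowest part was set against the deepest, giving 18 sets, for genes of at least 10 CPM and with 0.5 CPM added before taking logs. The members' median log2 ratio (shallow over deep) was 0.43 to 1.75, with a median over sets of 0.81. Other protein-coding genes of up to 5 kb had 0.31 to 1.44 (median 0.69), nuclear respiratory chain genes 0.13 to 1.41 (0.68), all genes 0.04 to 0.46 (0.19) and genes of 100 kb or more -0.20 to 0.10 (-0.02). Members lay above the other short genes in 17 of the 18 sets, CA1-like nuclei of mouse 2 being the exception. The members' median gene length was 3266 bp, against 21064 bp for all genes with the UMI minimum.

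Members themselves varied in this ratio. Of the 57 measured in all 18 sets, 40 were higher in shallow nuclei in every set, and their medians ran from 0.39 to 1.21. The smallest belonged to Rpl5 (range over sets -0.38 to 1.30), which with Rpl11 carries the 5S ribosomal RNA, followed by Rpl22 (0.13 to 1.24) with a median of 0.42. Across these genes the ratio had a Spearman rho of -0.491 with gene length, as a description over genes that share libraries.

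**Figure D4:**
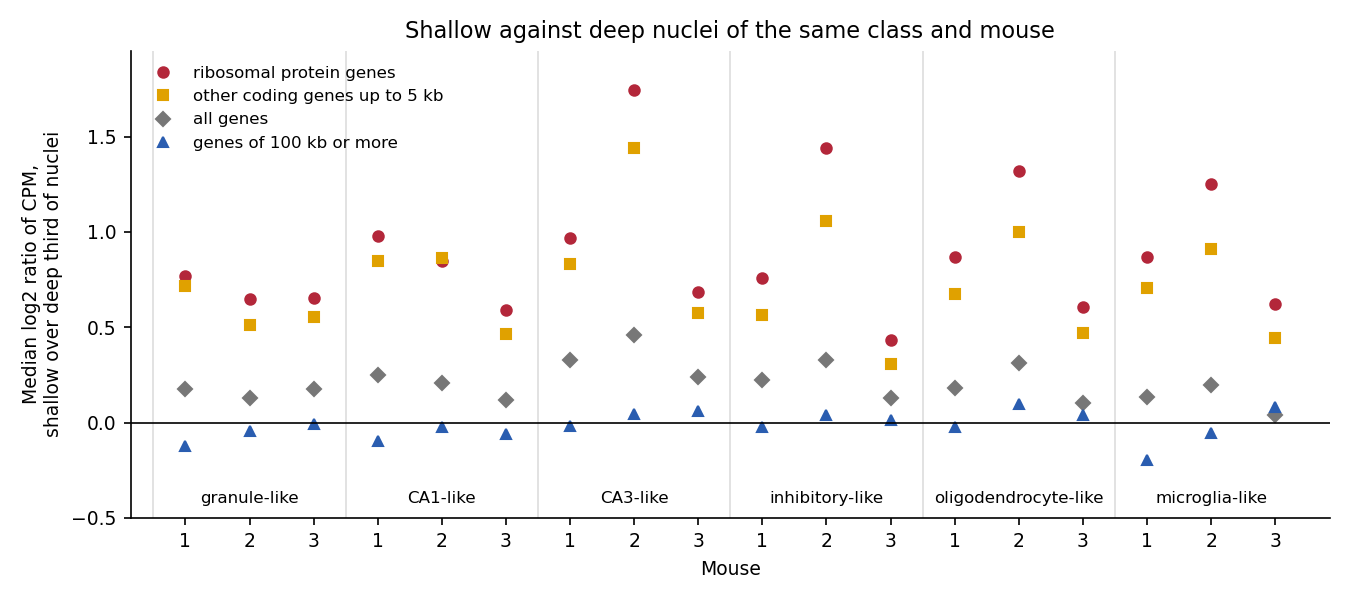
Median log2 ratio of CPM, shallowest over deepest of 3 equal parts of the nuclei, for 6 classes in each of 3 mice. Ribosomal protein genes (circles, 0.43 to 1.75) and other short coding genes (squares, 0.31 to 1.44) lie above all genes (diamonds) in every set, and genes of 100 kb or more (triangles) lie near 0.

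Relative to all their UMIs, neuron-like nuclei had lower counts than glia-like nuclei for nearly every member. Counts were summed per mouse and fitted over all genes with edgeR's quasi-likelihood test. The neuron-like group joined the inhibitory-like and the glutamatergic-like classes, granule and CA included, without Cajal-Retzius-like nuclei, and the glia-like group the 4 glia-like classes. Member UMIs per nucleus mostly went the other way. In mouse 1 granule-, CA1- and CA3-like nuclei carried means of 28.3, 31.7 and 41.3. Oligodendrocyte-, microglia- and OPC-like nuclei carried 9.92, 13.6 and 16.3, while astrocyte-like nuclei, at 27.1, lay within the range of the neuron-like classes. Of 77 members tested, 75 had a negative log2 fold change (median -0.46, against 0.02 for all 17259 genes and -0.28 for other short coding genes). Past the Benjamini-Hochberg adjusted p of 0.05, 24 members fell, where 16.4% of all genes fell and 10.5% rose. A single member, Rps4x, also passed the 2-fold rule, where 14.6% of all genes were called lower and 8.75% higher. Classes were defined by expression, though not of these genes, so the background is context.

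Rps4x, the X-linked gene of small-subunit protein S4, stood at 13.2, 9.32 and 6.55 CPM in neuron-like nuclei of mice 1, 2 and 3 and at 31.3, 21.2 and 29.1 CPM in glia-like nuclei. The groups did not overlap. Its log2 fold change was -1.14 ± 0.197 (SE, edgeR adjusted p = 0.0261), in the same direction in 3 of 3 mice. The next largest changes, named after their values were seen, were in Rps9, Rplp1 and Rpl36a. Rps9, a small-subunit gene involved in decoding, had 23.9, 22.9 and 12.8 CPM against 53.4, 46.4 and 49.3 CPM (log2 fold change -0.99, edgeR adjusted p = 0.0262). Rplp1, of the acidic stalk that recruits elongation factors, had 31.3, 27.6 and 20.8 CPM against 66.3, 64.3 and 63.3 CPM (-0.92, edgeR adjusted p = 0.0235). For these genes each neuron-like value lay below each glia-like value.

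The only members with a positive fitted value were Rpl15 (log2 fold change 0.19 ± 0.184, edgeR adjusted p = 0.459) and Rpl22 (0.04), and neither passed the test. Their plain CPM values were lower in neuron-like nuclei in 3 of 3 mice, and without the TMM scaling factor no member was positive. That scaling sets the size of the result: without it 19 members were called, 57 passed the adjusted p, and the members' median was -0.85 beside -0.36 for all genes. Of all 17259 genes, 3472 were then called lower and 1062 higher, and 4025 fell and 1213 rose. Without mouse 1, or without mouse 3, edgeR passed no member, with 6 and 41 at an unadjusted p under 0.05. There 0 of all 17533 and 0 of all 17433 genes passed, so these fits do not set members apart from other genes. DESeq2 on all mice passed 12 and called 1. Of all 17259 genes, 3228 fell and 3181 rose there, and 2863 were called lower and 2623 higher.

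Neuron-like nuclei were deeper than glia-like nuclei, with median UMIs of 12261 against 2867, 3194 against 1395 and 30356 against 6848 in mice 1, 2 and 3. When nuclei were drawn to equal numbers within narrow bins of depth, 4 to each doubling, the medians became 5475.5 against 5380, 1960 against 1953 and 13818.5 against 13478. The members' median log2 fold change then was 0.16, and 21 of 77 were negative. With edgeR no member passed and 0 were at an unadjusted p under 0.05, while 1.85% of all genes rose and 8.07% fell. DESeq2 was not run on matched nuclei. Rps4x was at -0.48 ± 0.315 (edgeR adjusted p = 0.339) and Rps9 at -0.37. A coarser match in bins of a doubling, tried first, gave a median of 0.11 and also passed none, with 0 at an unadjusted p under 0.05, where 1.74% of all genes rose and 8.56% fell. The summed share had log2 ratios of -0.73, -0.68 and -1.05 unmatched, and 0.41, -0.012 and -0.42 in the narrow bins, so the mice no longer shared a direction. Matching keeps shallow neuron-like and deep glia-like nuclei, which need not stand for their classes.

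Glia-like nuclei also held neuronal RNA. For glutamatergic markers the reference was the glutamatergic neuron-like nuclei, without the inhibitory-like ones. The 9 pan-glutamatergic markers summed in oligodendrocyte-like nuclei to 19.0%, 54.7% and 18.6% of the reference in mice 1, 2 and 3. In astrocyte-like nuclei they summed to 32.2%, 66.6% and 20.5%, with no marker at 0. The 16 inhibitory markers, set against inhibitory-like nuclei, were at 15.4%, 21.1% and 16.5% in oligodendrocyte-like nuclei. In astrocyte-like nuclei they were at 6.81%, 15.4% and 6.95%, with 2, 2 and 1 of them at 0. Over the 4 glia-like classes the inhibitory values ran from 3.56% (microglia-like, mouse 1) to 46.8% (OPC-like, mouse 3). Mitochondrial transcripts moved with the members: the 10 of the mitochondrial genome that were tested had a median log2 fold change of -0.86, with mt-Atp6 at -1.18 (edgeR adjusted p = 0.0361) and mt-Cytb at -1.10 (edgeR adjusted p = 0.0322). At matched depth these 2 were at -0.57 and -0.81 and did not pass. The part of both in the ribosomal protein result was not tested.

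**Figure D5:**
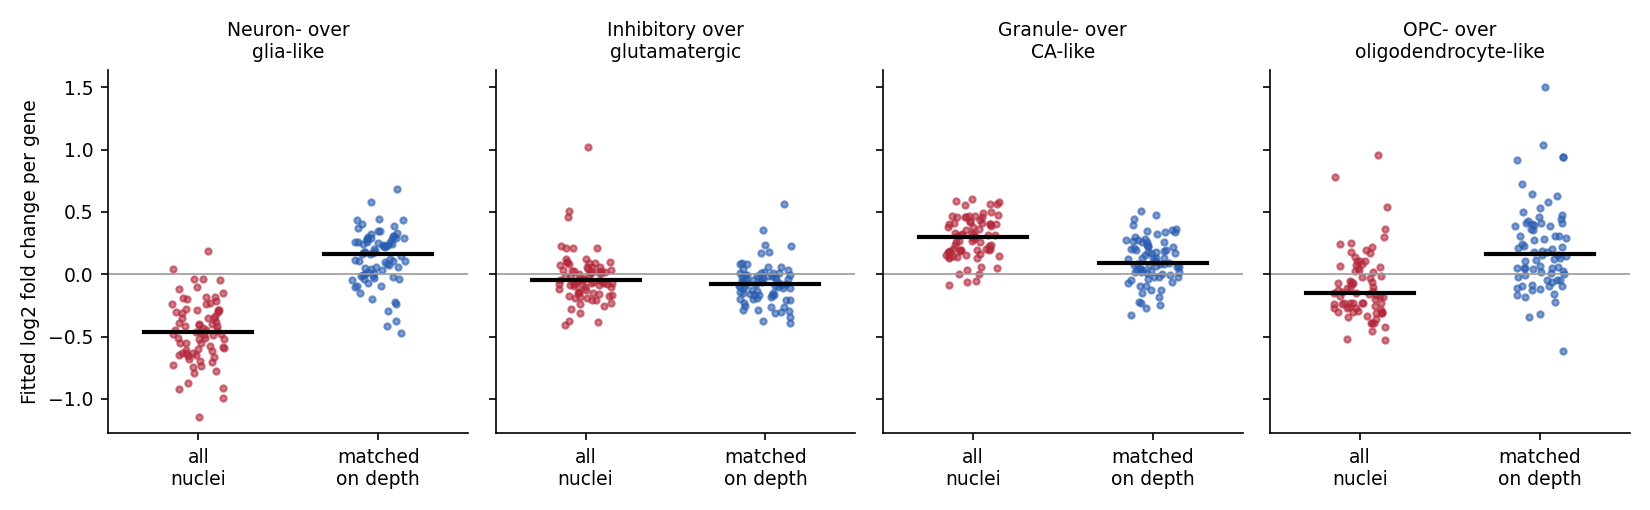
Fitted edgeR log2 fold change of each ribosomal protein gene in 4 comparisons, with all nuclei (left) and with nuclei matched on depth in narrow bins (right), and the median as a bar. For neuron-like over glia-like nuclei the median is -0.46 with all nuclei and 0.16 when matched.

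In the fit over all mice, inhibitory and glutamatergic neuron-like nuclei differed in few members. Of 78 tested, edgeR called 0 at 2-fold (5 were at an unadjusted p under 0.05, and DESeq2 also called 0), where 8.09% of all genes were called higher and 7.26% lower. The members' median log2 fold change was -0.05. Within mice it was 0.02, 0.32 and -0.07. In mouse 2, the one with the higher value, inhibitory-like nuclei were the shallower (median 2438 against 4267 UMIs). Rpl11, which binds 5S ribosomal RNA and restrains Mdm2 when ribosome assembly fails, was the one member to pass the adjusted p at any fold, where 13.1% of all genes rose and 13% fell. It had 40.3, 34.4 and 31.4 CPM in inhibitory-like nuclei of mice 1, 2 and 3 against 28.3, 24.4 and 16.7 CPM. Its log2 fold change was 0.50 ± 0.119 (edgeR adjusted p = 0.0321), and in the narrow depth bins 0.56 (edgeR adjusted p = 0.0385), where 11% of all genes rose and 11% fell. The groups did not overlap. It did not pass without any 1 mouse, with edgeR adjusted p of 0.0949, 0.0692 and 0.0856, nor in the coarser match (edgeR adjusted p = 0.0841). There Rpl4, a core large-subunit gene, passed in its place, with a log2 fold change of -0.49 (edgeR adjusted p = 0.0381), where 10.7% of all genes rose and 10.8% fell. In the narrow bins Rpl4 was at -0.38 (edgeR adjusted p = 0.0856).

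Rpl3l had the largest value of the comparison, 0.80, 0.905 and 0.697 CPM against 0.369, 0.395 and 0.306 CPM. The log2 fold change of 1.02 ± 0.341 did not pass (edgeR adjusted p = 0.0827), and the gene has few UMIs. Rps27l was at 0.46 and Rpl36al at 0.23, neither past the test.

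Granule-like nuclei had higher values than CA pyramidal-like nuclei for 74 of 77 members, with a median log2 fold change of 0.30 against -0.01 for all genes. EdgeR called 0 at 2-fold (23 were at an unadjusted p under 0.05, and DESeq2 also called 0), where 5.67% of all genes were called higher and 13.1% lower. At any fold, 4 members rose, where 10.2% of all genes rose and 17% fell: Rpl15, Rpl23, Rps10 and Rpl39. Rpl15, a core large-subunit gene, had 46.8, 50.2 and 34.4 CPM against 29.7, 40.9 and 21.7 CPM, and it was higher in 3 of 3 mice although the groups overlapped. Its log2 fold change was 0.60 ± 0.142 (edgeR adjusted p = 0.0212), and it was the one member to pass at matched depth. In the narrow bins it was at 0.50 (edgeR adjusted p = 0.0432), where 9.87% of all genes rose and 14.4% fell. In bins of a doubling it was at 0.59 (edgeR adjusted p = 0.0217), where 9.98% rose and 15% fell. Rpl23, Rps10 and Rpl39 had log2 fold changes of 0.56 each, and 0.36, 0.44 and 0.27 when matched.

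Rpl41 was at 118, 48.0 and 47.0 CPM in granule-like nuclei against 58.5, 46.2 and 34.1 CPM (log2 fold change 0.59, edgeR adjusted p = 0.0559), the high value being that of mouse 1. The 3 members with negative values were Rpl12 (-0.08), Rpl13a (-0.06) and Rps14 (-0.06), and none passed. Within mice the members' median was 0.36, -0.10 and 0.30, so mouse 2, in which granule-like nuclei were deeper than CA-like nuclei (median 13143 against 4518.5 UMIs), went the other way. In mice 1 and 3 granule-like nuclei were the shallower. The depth in mouse 2 depends on which clusters were named. Of its granule-like nuclei, 216 came from a cluster of median 13354 UMIs. Another cluster, with 1130 nuclei of mouse 2 and a median of 5514 UMIs, stayed unnamed, though Glis3 and Plpp4 were among the leading genes of both. On the CA side, a cluster with 972 nuclei of mouse 2 and a median of 2354.5 UMIs also stayed unnamed. Gm34466 was among the leading genes of that cluster and of a CA1-like one. The mouse 2 values may therefore not stand for either class. At matched depth the members' median was 0.09. Without mouse 1 or mouse 2 no member passed (1 and 22 at an unadjusted p under 0.05 in edgeR). Of all genes, 3214 of 16020 and 2740 of 16817 passed there. Of the 11 genes tested from the stress list, 2 rose and none fell, where 10.2% of all genes rose and 17% fell. Atf3 was at a log2 fold change of 3.75 (edgeR adjusted p = 0.00604). That list held 0.0475%, 0.0163% and 0.0254% of the UMIs of granule-like nuclei, against 0.0224%, 0.0129% and 0.0222% in CA1-like and 0.0279%, 0.0152% and 0.0174% in CA3-like nuclei. Its part in the members' values was not tested.

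OPC-like and oligodendrocyte-like nuclei differed in few members. EdgeR called 0 of 77 at 2-fold (4 were at an unadjusted p under 0.05, and DESeq2 also called 0), where 8.55% of all genes were called higher and 7.48% lower. Rpl10a, a large-subunit gene at the exit site for transfer RNA, was the one member to pass the adjusted p, where 9.14% of all genes rose and 8.45% fell: 59.4, 63.0 and 56.1 CPM in OPC-like nuclei of mice 1, 2 and 3 against 33.3, 45.3 and 25.8 CPM. The groups did not overlap. The log2 fold change was 0.78 ± 0.20, and the edgeR adjusted p of 0.04996 lies just under the threshold. It did not pass without mouse 1 (edgeR adjusted p = 0.178) or mouse 3 (0.226), nor with DESeq2 (adjusted p = 0.167). Of all genes, 886 of 12589 passed without mouse 1 and 0 of 12536 without mouse 3. Rpl13 had 222, 115 and 78.4 CPM against 62.2, 79.0 and 52.7 CPM, with the highest value again in mouse 1 (0.96 ± 0.313, edgeR adjusted p = 0.0916).

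These calls depended on how depth was matched. In bins of a doubling both genes were called (9.08% of all genes were called higher and 7.86% lower there, and 9.59% rose and 8.26% fell at any fold), Rpl10a at 1.16 (edgeR adjusted p = 0.0289) and Rpl13 at 1.31 (edgeR adjusted p = 0.0304). In the narrow bins, added after that result was seen because OPC-like nuclei of mouse 3 were still deeper (median 11686 against 9093 UMIs), neither passed, where 6.89% of all genes rose and 7.11% fell: Rpl10a was at 0.94 (edgeR adjusted p = 0.0631) and Rpl13 at 1.5 (edgeR adjusted p = 0.0604). The finer match used 64 in place of 98 nuclei per class in mouse 3. The members' median was -0.15 with all nuclei, 0.20 in the coarser and 0.16 in the finer match.

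Of the ribosome genes outside the name pattern, 2 of 6 passed in neuron-like against glia-like nuclei, and both fell, where 16.4% of all genes fell and 10.5% rose. Rpsa, the small-subunit protein also known as the laminin receptor, fell by 0.81 on the log2 scale (SE 0.142, edgeR adjusted p = 0.0269). Fau, a ubiquitin-like fusion with a small-subunit protein, fell by 0.72 (SE 0.155, edgeR adjusted p = 0.0374). At matched depth they were at -0.09 and -0.05. Rack1 (-0.14) did not pass.

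The rest of the translation machinery was tested from lists. In neuron-like against glia-like nuclei, 0 of 29 initiation factors and 0 of 78 mitochondrial ribosomal protein genes passed the adjusted p in edgeR, and 2 of 7 elongation factors fell, again beside 16.4% of all genes that fell and 10.5% that rose. The median of the mitochondrial ribosomal protein genes was 0.02. Of 30 ribosome assembly genes 1 changed, Rrs1, a regulator of ribosome synthesis, with 3.36 ± 1.19 CPM in neuron-like and 16.9 ± 5.84 CPM in glia-like nuclei (SD, n = 3). Its fitted value was -1.96, and -2.07 at matched depth. Rrs1 was also lower in OPC-like than in oligodendrocyte-like nuclei (-1.78, edgeR adjusted p = 0.0115). In granule-like against CA-like nuclei, Tpt1, a growth-related TOP messenger, rose by 1.48 (edgeR adjusted p = 0.00340), as did Mrpl33 of the mitochondrial large subunit by 1.29, while Mrps6 fell by 1.20. Tsc1, which restrains mTOR, fell by 1.04 on the log2 scale in OPC-like nuclei, and Mrpl52 rose by 1.01. At matched depth neither passed, with Tsc1 at -0.88 (edgeR adjusted p = 0.0599) and Mrpl52 at 1.48 (edgeR adjusted p = 0.0727). Among genes of other lists, Neat1 had -4.62 and Mirg 2.57 in neuron-like nuclei, and Fos 1.20 and Ddit3 1.24 in inhibitory-like nuclei.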

How the data were processed

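Single-nucleus 3' RNA counts of 3 mouse hippocampus libraries were used. The values deposited by the authors are raw UMI counts of genes in barcodes, made with Cell Ranger 7.0.0 (mice 1 and 2) or 7.1.0 (mouse 3) per the file headers, with mm10 as the build per the submitters' processing notes. The sources used here do not say whether reads in introns were counted. Totals were 100230288, 50931257 and 140527761 UMIs.

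Nuclei with 500 genes or more and at most 5% mitochondrial UMIs were kept. Scrublet in scanpy 1.11.5 removed 755, 1443 and 274 doublets, and since its threshold called 0 in mouse 2, a rate of 0.8% per 1000 nuclei was used there. Clustering (3000 variable genes, 30 components, 20 neighbours, Leiden resolution 1.5) left out the members and the other tested lists. Clusters were named "-like" from markers.

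Counts summed per mouse and class went into edgeR 4.0.16 under R 4.3.3 (TMM, filterByExpr, quasi-likelihood test, Benjamini-Hochberg over all genes), and a call required both an adjusted p under 0.05 and a 2-fold change. Rose, fell and passed refer to the adjusted p alone. Each SE is the absolute fold change divided by the root of F. Mouse was a block because both sums come from 1 animal, and deviations of the 2 sums from their class means correlated at 0.112 to 0.696 across genes. Alternatives included DESeq2 1.42.0. Fits were tested on simulated data.

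Replicates are mice (n = 3). Some genes are not reported here. The members and lists were chosen with earlier results of these data known. Genes named were the 10 members with most UMIs, called members, the 3 largest against the median's sign, paralogs, members at the UMI minimum, ribosome genes outside the pattern and the largest calls of other lists. Matching on depth was chosen after seeing the data, first in bins of a doubling and then, after that result, in narrow bins, 4 to each doubling.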

Additional observations from a re-analysis of the deposited data

How the results depend on the processing

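Of the alternatives run, those on the counts in neuron-like against glia-like nuclei moved most. The 1 called member became 19 without TMM and 0 with nuclei thinned to 1000 UMIs, with each library clustered alone and in both matches on depth, and 0 to 2 when 1 mouse was left out. The 24 past the adjusted p became 10 without the low-count filter, 12 with DESeq2, 57 without TMM, 2 when thinned, 2 when clustered alone, 0 in both matches and 0 to 9 without 1 mouse. Their median of -0.46 became -0.85 without TMM, and turned positive in the matches, at 0.11 (doubling bins) and 0.16 (narrow bins). Over all genes, those past the adjusted p were 4634 of 17259 in the main fit, 5267 of 26826 without the filter and 6409 of 17259 with DESeq2. They were 5238 of 17259 without TMM, 2191 of 13066 when thinned and 2454 of 17460 clustered alone. In doubling bins they were 1441 of 13990, and in narrow bins 1308 of 13191. Without mice 1, 2 and 3 they were 0 of 17533, 7020 of 18953 and 0 of 17433.

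With no replicate block for mouse, the counts past the adjusted p became 0 for inhibitory against glutamatergic, granule against CA and OPC against oligodendrocyte nuclei, and no count of called members changed. Of all genes, 1376 of 16193, 1900 of 16331 and 1601 of 12314 passed there. The inhibitory count of 1 was 0 when thinned and 0 without any 1 mouse. Of all genes, 1257 of 11100 passed when thinned, and 1993 of 16335, 3419 of 18067 and 2239 of 16282 without mice 1, 2 and 3. The granule count of 4 was 1 without TMM, 1 with doublets kept, 0 when thinned, 1 clustered alone, 1 in both matches and 0 to 5 without 1 mouse. Of all genes, 4438 of 16331 passed in the main fit, 4239 of 16331 without TMM and 3991 of 16450 with doublets kept. When thinned 1592 of 9278 passed, and clustered alone 4350 of 16664. For OPC against oligodendrocyte nuclei, called members were 2 in doubling bins and 0 to 1 without 1 mouse. Those past the adjusted p were 0 with DESeq2, with doublets kept, clustered alone and in narrow bins, 2 in doubling bins and 0 to 3 without 1 mouse. Their median was -0.27 with doublets kept, -0.020 when thinned, and reversed to 0.20 and 0.16 in doubling and in narrow bins. Which of these reflects depth and which fewer nuclei was not tested. Of all genes in the OPC comparison, 2167 of 12314 passed in the main fit and 2240 of 12314 with DESeq2. With doublets kept 2084 of 12977 passed, clustered alone 1730 of 11605, and without mouse 3 0 of 12536.

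Library shares of mice 1, 2 and 3 were 0.240%, 0.268% and 0.152% with ribosome genes outside the name pattern added, 0.227%, 0.270% and 0.145% over all barcodes, and 0.328%, 0.430% and 0.191% as means per nucleus. In nuclei of 2000 to 8000 UMIs, mean shares over all 3 mice were 0.521% (astrocyte), 0.388% (microglia) and 0.267% (oligodendrocyte). Over mice 1 and 2 alone, since mouse 3 had under 20 such nuclei, they were 0.304% (CA1), 0.314% (CA3), 0.269% (glutamatergic), 0.299% (inhibitory), 0.278% (subicular or cortical) and 0.311% (OPC). Granule nuclei were at 0.363% in mouse 1 alone. Against the oligodendrocyte values of the same mice, 0.304% and 0.252%, CA1 had 0.350% and 0.258%, and CA3 0.354% and 0.274%, so the order with all nuclei was not kept. As means per nucleus they were 0.229% (CA3), 0.339% (OPC), 0.598% (astrocyte), 0.220% (glutamatergic) and 0.235% (subicular or cortical), and thinned to 1000 UMIs 0.223% (CA3), 0.591% (astrocyte), 0.221% (glutamatergic) and 0.239% (subicular or cortical). CA1 was at 0.193% with each library clustered alone, above CA3 at 0.177%, so it was no longer the lowest class. In all, 166 values were labelled the same, 72 moved and 4 reversed. A count was the same within a fixed fold of the main count, which takes in counts of 0 that stayed 0. A median fold change was the same if it lay within the SD over mice, whatever its sign. The inhibitory median of -0.05, for instance, became 0.09 without TMM and 0.05 without mouse 3, and both were labelled the same.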

Other observations

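Unnamed nuclei, which enter no comparison, had ribosomal protein shares of 0.230%, 0.318% and 0.148% in mice 1, 2 and 3. In the range of 2000 to 8000 UMIs, 55 unnamed nuclei of mouse 1 reached 0.862%, with a mitochondrial share of 0.132%, while 1586 of mouse 2 were at 0.288%.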
